A study of Mus musculus with 32 samples.

Results

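The 6 genes described here, Acat2, Mvk, Pmvk, Mvd, Idi1 and Fdps, encode enzymes on the route from acetyl-CoA by way of mevalonate to farnesyl diphosphate. The steps between Acat2 and Mvk are not analysed here. They were chosen by name, and their rows were read from the deposited tables of 24890 gene symbols. All 6 passed the filter on low counts, as did 15036 genes in all. Polyadenylated RNA was sequenced from wild-type E14 cells, a line of mouse embryonic stem cells. Both arms of the study were grown on gelatin in medium with 15% serum, 1000 U/mL LIF (a cytokine that holds these cells undifferentiated), 3 µM CHIR99021 (a GSK3 inhibitor) and 1 µM PD0325901 (a MEK inhibitor). The arm labelled NrESC received 10 µM T0901317 in addition, a synthetic ligand that activates LXR, the liver X receptors; the arm labelled ESC was its control of equal passage. Each arm was sampled at passages 0, 2, 4, 6, 8, 10, 12 and 14 (written P0 to P14 in lists of values) with 2 libraries a group, 32 in 16 groups in all. NrESC at passage 0 is labelled as treated, with no duration given, and nothing in the labels shows that a group's 2 libraries were grown apart. The p-values therefore measure only the spread between these libraries, which may be technical.

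The mevalonate pathway supplies the isoprene units of cholesterol, dolichol, ubiquinone and the lipid anchors of prenylated proteins. Its genes are known targets of SREBP-2, a membrane-bound transcription factor that is released when sterols in the endoplasmic reticulum run low. LXR are nuclear receptors activated by oxysterols, and they are known for switching on sterol export and the gene of SREBP-1c. Acat2 joins 2 molecules of acetyl-CoA in the first step towards mevalonate, and Mvk and Pmvk add phosphate groups to mevalonate. Mvd then removes carbon dioxide to give isopentenyl diphosphate, Idi1 interconverts that with its isomer, and Fdps condenses such units to farnesyl diphosphate, where the sterol and prenyl branches part.

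RefSeq promoter windows (GRCm38.p6, 250 bases before to 50 bases after a start site) were found for 5 of the 6 enzymes, and the stretches below show the start regions of genes whose arm differences in the mean shared a sign. Capitals mark CCAAT, the letters bound by NF-Y, a known partner of SREBP, on either strand (ATTGG on the other one).
Mvk, chr5:114444089-114444229, plus strand: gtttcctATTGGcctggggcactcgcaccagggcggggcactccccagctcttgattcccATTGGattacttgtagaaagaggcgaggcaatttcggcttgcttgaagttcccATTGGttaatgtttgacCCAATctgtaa
Mvd, chr8:122443437-122443497, minus strand: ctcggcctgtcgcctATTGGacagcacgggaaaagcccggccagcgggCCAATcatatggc
Idi1, chr13:8885556-8885585, plus strand: agctgATTGGcgagcccgggcatggtccaa
In the last stretch, for Acat2, capitals mark CACNCCAC on either strand, a shortened spelling of the sterol regulatory element.
Acat2, chr17:12960765-12960915, minus strand: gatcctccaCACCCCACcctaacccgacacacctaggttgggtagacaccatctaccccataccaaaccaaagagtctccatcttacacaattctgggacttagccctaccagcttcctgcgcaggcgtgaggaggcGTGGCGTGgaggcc

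The Mvk stretch runs from base -180 to base -40 relative to the start, that of Mvd from -75 to -15, that of Idi1 from -50 to -21 and that of Acat2 from -190 to -40. The Idi1 bases lie within an exon of the GENCODE annotation of this build, and none of the other printed bases do. The whole Mvk window held 5 matches to CCAAT, and the windows of Mvd and Idi1 held 2 each. Of 32851 RefSeq windows of 300 bases, 37.4% held at least 1 match, 11.7% at least 2 and 0.271% at least 5. Pmvk has 2 windows, and the first held 1 match. The Acat2 window held no CCAAT and 2 matches to CACNCCAC, which 6.24% of windows held at least once and 0.475% at least 2 times. The longer spelling TCACNCCAC, which contains CACNCCAC, occurred in 1.24% of windows and in none of these, and the LXR element, a pair of AGGTCA half-sites with 4 bases between them, in 0.0152% and in none of these. A match describes letters only and is no measurement of binding.

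Libraries held 24989651 to 50463483 expected counts. Both passage 8 libraries of NrESC lay far from the rest on the first 2 principal components of log2 CPM (counts relative to the scaled library total), so results are also given without passage 8. Known LXR targets were higher in the libraries labelled as treated, with a log2 fold change in the mean of 8 passages of 4.18 for Abcg1 and 3.10 for Abca1. The summed level of 8 stem cell markers ran from 9155 to 10644 TPM (transcript counts corrected for length and scaled to one sum per library) in ESC and from 9911 to 12359 TPM in NrESC. The sum of 9 fibroblast markers was 10.2 to 19.2 TPM in ESC and 10.8 to 23.9 TPM in NrESC, with 6 of the 9 under 1 TPM on average and Lum at 0. The sum of 6 primitive endoderm markers was 5.36 to 8.63 and 5.61 to 11.4 TPM. Single markers moved between the arms under these sums. In the mean of 8 passages 4 stem cell markers were higher in NrESC, Dppa5a (0.45), Klf4 (0.16), Tfcp2l1 (0.15) and Pou5f1 (0.15). The other 4 were lower, Nanog (-0.45), Sox2 (-0.32), Zfp42 (-0.32) and Esrrb (-0.04). Of all genes, 39.1% were higher and 39.8% lower in the same mean. Dppa5a was the largest part of the stem cell sum, with a mean of 4792 TPM in ESC and 6461 TPM in NrESC. In bulk RNA a smaller share of cells that express a gene and less RNA per cell cannot be told apart.

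All 6 enzymes were higher in NrESC than in ESC when the 8 passages were averaged, by 1.06-fold for Idi1 up to 1.63-fold for Pmvk. In the same test 39.1% of all genes were higher and 39.8% were lower, so a call alone says little. The size says more: the median log2 fold change of the 6 was 0.455. That of all genes was -0.001, a value that the scaling of libraries places near 0. The fold change of Idi1 was above that of 61.6% of all genes tested, that of Acat2 above 79.6%, of Mvk above 87.9%, of Fdps above 91.1%, of Mvd above 91.5% and of Pmvk above 95.5%. At passage 0 the median of the 6 was 0.03, with Mvk, Pmvk and Mvd higher in NrESC and Idi1 and Fdps lower, and at passage 8 it was 0.77. Over the first 6 passages the levels fell in ESC, and in NrESC they fell less or, for Idi1, rose.

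**Figure D1:**
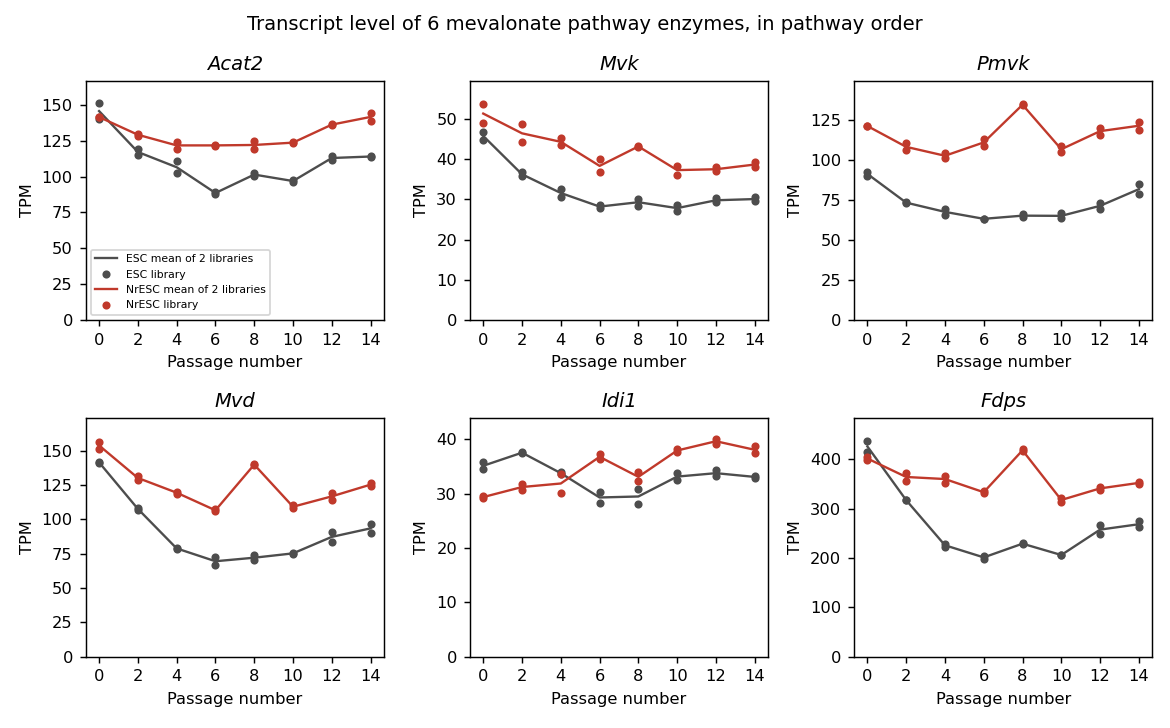
Level in TPM (vertical axes, from 0) of each enzyme against passage number, with points for the 2 libraries of a group and lines through their means, ESC in grey and NrESC in red. Every enzyme but Idi1 falls steeply in ESC between passages 0 and 6, Pmvk is separated between the arms at every passage, and the Idi1 lines cross near passage 4.

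Acat2, the cytosolic thiolase that opens the pathway, was among the more abundant of the 6. In ESC its 2 libraries read 151 and 140.1 TPM (P0), 115 and 119 (P2), 111 and 102 (P4), 88.0 and 89.0 (P6), 101 and 102 (P8), 96.2 and 97.5 (P10), 111 and 115 (P12), and 114 and 114 (P14). In NrESC they read 141 and 141 TPM (P0), 129 and 129.6 (P2), 124 and 119 (P4), 122 and 122 (P6), 119 and 125 (P8), 124 and 123 (P10), 136 and 137 (P12), and 144 and 139 (P14). ESC thus had its lowest values at passage 6, and the ESC libraries of passages 12 and 14 overlapped. The NrESC values of passages 4, 6, 8 and 10 lay within one another's spread or next to it. Both NrESC libraries were above both ESC libraries at every passage except 0, where the NrESC values fell between those of ESC. The log2 fold change of NrESC over ESC in the mean of 8 passages was 0.26 (SE 0.012; adjusted p = 9.83e-23, edgeR's quasi-likelihood test with Benjamini-Hochberg adjustment). At single passages it ran from -0.05 at passage 0, which was not called, to 0.46 at passage 6. Of the 50-base words of Acat2 transcripts, 40.7% also occur in Acat3, a neighbouring paralog, so the division of reads between them is uncertain. Acat3 averaged 1.49 TPM in ESC and 1.25 TPM in NrESC, far below Acat2, and had a log2 fold change of -0.25 (SE 0.073).

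Mvk encodes mevalonate kinase, an enzyme known to be inhibited by downstream prenyl diphosphates, and it was 1 of the 2 least abundant members. Its ESC libraries read 44.8 and 46.8 TPM (P0), 35.7 and 36.8 (P2), 32.7 and 30.5 (P4), 28.5 and 27.9 (P6), 30.1 and 28.5 (P8), 28.6 and 27.1 (P10), 29.3 and 30.3 (P12), and 29.6 and 30.6 (P14). The NrESC libraries read 49.0 and 53.7 TPM (P0), 44.2 and 48.7 (P2), 43.5 and 45.2 (P4), 36.7 and 39.9 (P6), 43.1 and 43.3 (P8), 36.1 and 38.4 (P10), 38.0 and 37.0 (P12), and 37.9 and 39.4 (P14). From passage 6 on the ESC values were flat, each passage overlapping or adjoining the next, while NrESC kept an offset above them. Both NrESC libraries exceeded both ESC libraries at each of the 8 passages. The log2 fold change in the mean of 8 passages was 0.41 (SE 0.020; adjusted p = 5.52e-22, edgeR's quasi-likelihood test). It lay between 0.17 at passage 0 and 0.61 at passage 8.

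Pmvk, phosphomevalonate kinase, separated the arms most clearly. In ESC it read 90.0 and 92.4 TPM (P0), 73.7 and 72.9 (P2), 69.2 and 65.8 (P4), 63.3 and 63.1 (P6), 64.4 and 66.0 (P8), 63.5 and 66.6 (P10), 73.3 and 69.3 (P12), and 84.7 and 78.7 (P14). In NrESC it read 121 and 121 TPM (P0), 106 and 110.4 (P2), 101 and 104 (P4), 113 and 109 (P6), 134 and 135 (P8), 109 and 105 (P10), 116 and 120.2 (P12), and 124 and 119 (P14). All 16 NrESC libraries were above all 16 ESC libraries, which held for 1.51% of the genes tested and for no other member. ESC passages 8 and 10 overlapped near the bottom of its range, just above passage 6, and NrESC passage 8 stood above every other group. The log2 fold change in the mean of 8 passages was 0.70 (SE 0.015; adjusted p = 1.6e-34, edgeR's quasi-likelihood test). It was 0.41 (SE 0.041) in the first samples, at passage 0, and reached 1.10 at passage 8.

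Mvd, mevalonate diphosphate decarboxylase, followed with a steep early fall in ESC. It read 141 and 142 TPM (P0), 108 and 107 (P2), 79.2 and 78.4 (P4), 72.2 and 66.8 (P6), 74.0 and 70.2 (P8), 75.4 and 75.1 (P10), 83.8 and 90.6 (P12), and 90.3 and 96.6 (P14). In NrESC it read 157 and 151 TPM (P0), 129 and 131 (P2), 119 and 120.2 (P4), 107 and 106 (P6), 140.0 and 139.7 (P8), 110.4 and 108 (P10), 119 and 114 (P12), and 126 and 124 (P14). NrESC was above ESC at each passage with no overlap between the pairs, yet the NrESC range as a whole overlapped that of ESC, since ESC at passage 0 was as high as the NrESC groups after passage 0. The ESC groups of passages 6 and 8 overlapped. The log2 fold change in the mean of 8 passages was 0.51 (SE 0.014; adjusted p = 1.39e-31, edgeR's quasi-likelihood test), from 0.12 at passage 0 to 1.01 at passage 8.

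Idi1, isopentenyl diphosphate isomerase, went its own way. Its ESC libraries read 35.8 and 34.5 TPM (P0), 37.7 and 37.5 (P2), 34.0 and 33.6 (P4), 28.2 and 30.4 (P6), 28.1 and 30.9 (P8), 32.5 and 33.8 (P10), 33.3 and 34.3 (P12), and 33.3 and 32.9 (P14). The NrESC libraries read 29.2 and 29.6 TPM (P0), 31.7 and 30.8 (P2), 33.6 and 30.1 (P4), 37.3 and 36.3 (P6), 32.3 and 34.0 (P8), 38.3 and 37.6 (P10), 39.2 and 40.1 (P12), and 38.7 and 37.4 (P14). The order of the arms turned over: both NrESC libraries were below both ESC libraries at passages 0 and 2, the pairs met at passage 4, and NrESC was above from passage 6 on. The log2 fold change was -0.26 (SE 0.045) at passage 0 and -0.27 (SE 0.044) at passage 2, -0.01 and not called at passage 4, and 0.32 (SE 0.045) at passage 6. It stayed between 0.19 and 0.24 from passage 8 to 14. These opposite signs left a mean over 8 passages of 0.08 (SE 0.016; adjusted p = 1.99e-05, edgeR's quasi-likelihood test). With the 8 passages as the units of replication it was not called (0.08, SE 0.069; adjusted p = 0.351 by edgeR's quasi-likelihood test on the summed libraries).

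Fdps, farnesyl diphosphate synthase, the known target of nitrogen-containing bisphosphonates, was the most abundant member in all 16 groups. In ESC it read 416 and 437 TPM (P0), 318 and 317 (P2), 223 and 229 (P4), 204 and 199 (P6), 228 and 230.1 (P8), 206 and 206 (P10), 267 and 249 (P12), and 263 and 275 (P14). In NrESC it read 406 and 398 TPM (P0), 356 and 373 (P2), 353 and 367 (P4), 331 and 336 (P6), 416 and 420.3 (P8), 321 and 314 (P10), 344 and 338 (P12), and 350.1 and 355 (P14). ESC at passage 0 held the highest single library of all 32, and the pairs of ESC passages 12 and 14 overlapped. Both NrESC libraries were just below both ESC libraries at passage 0 and well above them at all later passages. The log2 fold change was -0.08 (SE 0.030) in the passage 0 samples, 0.77 at passage 4 and 0.94 at passage 8, with a mean over 8 passages of 0.50 (SE 0.011; adjusted p = 3.42e-34, edgeR's quasi-likelihood test). Of the 50-base words of Fdps transcripts, 64.1% also occur in other gene models, and for Idi1 28.6% do. For Fdps most of these shared words lie in Gm43738, which holds 57.3% of all 50-base Fdps words and overlaps Fdps on the same strand. None of those models has a row in the deposited tables, so reads from them could not be separated here.

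Called counts by passage show when the members joined. At passage 0, 3 of the 6 were higher in NrESC (Mvk, Pmvk and Mvd) and 2 lower (Idi1 and Fdps), where 17.6% of all genes were higher and 14.8% lower. At passage 2, 5 were higher and only Idi1 was lower, against 24.7% and 23.8% of genes. At passage 4, 5 were higher and none lower, against 27.4% and 26.9%. From passage 6 on all 6 were higher: the share of all genes called higher was 23.6% (P6), 35.2% (P8), 27% (P10), 23.1% (P12) and 19.7% (P14). Mvk, Pmvk and Mvd were called higher at each of the 8 passages, as were 6.44% of genes. Idi1 and Fdps were among the 0.592% of genes called lower at passage 0 and higher in the mean. The passage 0 calls were less firm than the later ones. Without the first ESC library of passage 0 only Pmvk remained higher there, and the log2 value of Acat2 turned to 0.02. The Mvk value fell to 0.10 (adjusted p = 0.277, edgeR's quasi-likelihood test) without the second NrESC library of passage 0, and that of Mvd to 0.08 (adjusted p = 0.194) without the first. The lower call for Fdps was lost without the second ESC library (-0.06; adjusted p = 0.258) or the second NrESC library (-0.07; adjusted p = 0.204) of passage 0, by the same edgeR test.

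**Figure D2:**
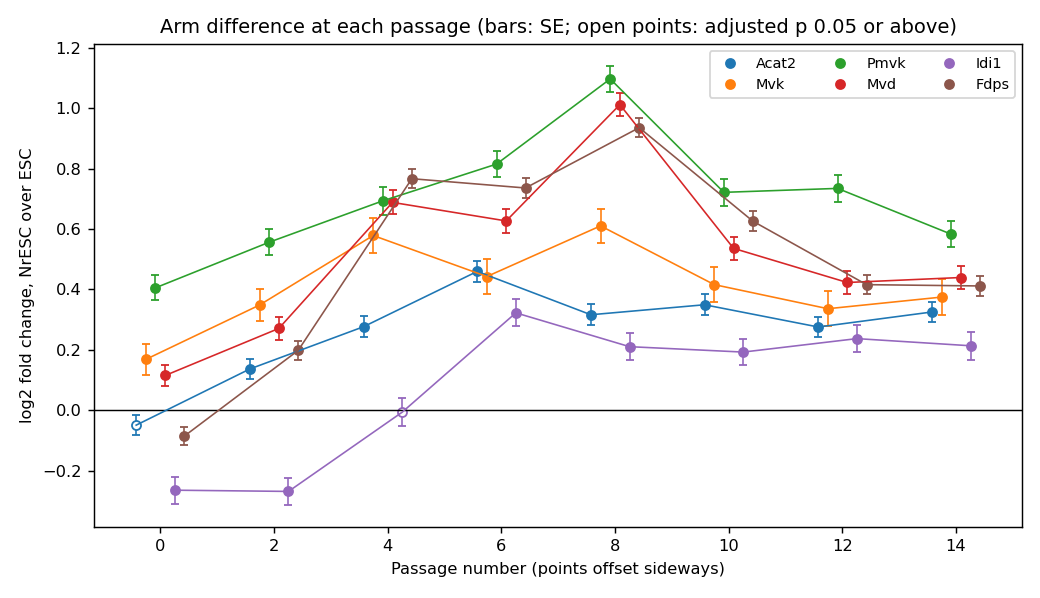
Log2 fold change of NrESC over ESC (vertical axis) for each enzyme against passage number, with bars of 1 standard error and open points where the adjusted p was 0.05 or above. The points start between -0.26 and 0.41 at passage 0, Mvk, Pmvk, Mvd and Fdps reach their highest values at passage 8, and Idi1 stays lowest throughout.

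The difference between the arms varied among passages for all 6 enzymes, which held for 69.4% of genes. The medians of the 6 over passages 0 to 14 were 0.03, 0.23, 0.63, 0.54, 0.77, 0.48, 0.38 and 0.39 on the log2 scale. The gap was thus widest at passage 8, the passage whose NrESC libraries lay far from the rest. At that passage 35.2% of all genes were higher in NrESC, and the share that was lower is not given here. Of 8 stem cell markers 3 were higher, Dppa5a by 0.72, Pou5f1 by 0.21 and Tfcp2l1 by 0.20 on the log2 scale. The other 5 were lower, Zfp42 at -1.32, Sox2 at -0.94, Nanog at -0.93, Esrrb at -0.46 and Klf4 at -0.44. Of the 5 primitive endoderm markers tested, 3 were higher (Gata6 by 1.37, Sox17 by 0.90 and Gata4 by 0.82) and Dab2 was lower, at -1.11. Of the 6 fibroblast markers tested, 3 were higher, among them Col1a1 by 1.01, and Fbn1 was lower, at -0.26. Gata6, Sox17 and Col1a1 then averaged 1.16, 0.87 and 1.51 TPM in NrESC against 0.45, 0.48 and 0.79 TPM in ESC. The part of these markers in the enzymes' peak was not tested. Without passage 8 the fold changes in the mean stayed called, at 0.25 for Acat2, 0.38 for Mvk, 0.65 for Pmvk, 0.44 for Mvd, 0.06 for Idi1 and 0.44 for Fdps. When the spread between passages replaced that between libraries, 5 of the 6 remained higher and Idi1 did not, against 28.3% of genes. Under that rule the log2 value of Pmvk was 0.70 (SE 0.061; adjusted p = 9.65e-06, edgeR's quasi-likelihood test with 7 residual degrees of freedom).

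The enzymes did not differ from one another in response by equal steps. In a comparison of the 15 pairs added after the data were seen, the arm differences of the 8 passages were set against each other in exact two-sided sign permutation tests, whose smallest possible p is 0.00781. Pmvk exceeded each of the other 5, by 0.19 ± 0.108 over Mvd (SD, n = 8 passages; exact adjusted p = 0.013) up to 0.62 ± 0.179 over Idi1 (exact adjusted p = 0.013). Idi1 was below each of the others at 8 of 8 passages. Acat2 was below Mvk, Mvd and Fdps, with exact adjusted p-values of 0.013 to 0.0195. Mvk, Mvd and Fdps could not be told apart: the mean differences were -0.10 for Mvk less Mvd (exact adjusted p = 0.0811), -0.09 for Mvk less Fdps (exact adjusted p = 0.259) and 0.01 for Mvd less Fdps (exact adjusted p = 0.734). Passages of an arm may not be independent of one another.

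Within each arm all 6 enzymes varied among passages, as did 80.9% of genes in ESC and 85.2% in NrESC. Each later passage was then set against passage 0 of its arm, a comparison also added after the data were seen. In ESC all 6 were lower at each later passage except Idi1 at passage 2, where 5 were. Of all genes, 19.1%, 27.6%, 27.2%, 28.1%, 28.3%, 26.8% and 26.4% were lower than at passage 0 at passages 2 to 14. At passage 6 the mean TPM level stood at 47.3% of passage 0 for Fdps, 49.1% for Mvd, 60.8% for Acat2, 61.7% for Mvk, 69.3% for Pmvk and 83.4% for Idi1. By passage 14 part of this had come back, to 63% for Fdps, 66.1% for Mvd, 78.3% for Acat2 and 89.6% for Pmvk, while Mvk stood at 65.7%.

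The falls were smaller in treated cells. In NrESC at passage 6 the level was 83% of passage 0 for Fdps, 69.3% for Mvd, 86% for Acat2, 74.7% for Mvk and 91.5% for Pmvk, and Idi1 stood at 125%. Those 5 enzymes were called lower than at passage 0 at passages 2, 4, 6, 10, 12 and 14, when 15.9%, 21.6%, 26%, 28.5%, 28.7% and 27.2% of genes were. These calls rest on scaled counts, and TPM did not show all of them. At passage 14 Acat2 and Pmvk were called lower by log2 values of -0.10 and -0.09. Their mean TPM levels in NrESC then stood at 100.0% and 100.1% of passage 0. Idi1 rose in NrESC and was called higher than at passage 0 at passages 6, 8, 10, 12 and 14, by 0.31, 0.12, 0.28, 0.34 and 0.27 on the log2 scale. The shares of genes called higher at those passages were 21.2%, 33.4%, 23.3%, 25.6% and 23.3%. At passage 8, where 34.8% of genes were lower, Acat2, Mvk and Mvd were lower, Pmvk was higher by 0.10 and Fdps was not called. Passage 0 is shared by all contrasts within an arm.

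A straight line over passage number describes this poorly. Fitted over all 8 passages, the slopes in ESC were called lower than 0 for 6 of 6 enzymes (28.2% of genes), from -0.044 log2 per passage for Fdps to -0.015 for Pmvk and Idi1. In NrESC 3 were lower (Mvk, Mvd and Fdps; 31.3% of genes) and Idi1 was higher (28.6% of genes), at 0.023 log2 per passage. The slope was greater in NrESC than in ESC for 5 of 6 (11.3% of genes), by 0.038 for Idi1. With passage as the unit 0 of these calls were left, beside 0.259% of genes for a lower ESC slope, 1.66% and 0.745% for a lower and a higher NrESC slope, and 0% for a greater slope in NrESC. Without passages 0 and 2, an alternative added after the data were seen, 4 of the ESC slopes were called higher instead, among them Fdps at 0.028 and Mvd at 0.030, and none was lower. The difference between the slopes was then called lower for 4 and higher for none. The share of all genes called was not counted for this fit, so these calls have no background beside them. As values, the ESC slope of Mvk was then -0.006 and those of the other enzymes were above 0. The negative slopes in ESC thus rest on passages 0 and 2.

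Levels of different enzymes are compared in TPM, which is per transcript length. Ordered by the mean of 8 passages, ESC had Fdps at 267 TPM, Acat2 at 110.3, Mvd at 90.7, Pmvk at 72.3, Idi1 at 33.2 and Mvk at 32.4. In NrESC the order was Fdps at 361 TPM, Acat2 at 129.6, Mvd at 125, Pmvk at 115, Mvk at 42.1 and Idi1 at 34.8. In both arms the steps from Fdps to Acat2 and from Pmvk to the lower pair exceeded the spread of passages. The other neighbours in these orders overlapped, and 6 different orders occurred among the 16 groups. The 6 levels summed to 605 ± 132 TPM in ESC (SD over 8 passages), from 480.2 at passage 6 to 885 at passage 0. In NrESC the sum was 808 ± 60.6 TPM, from 732 to 899. Fdps took 43.6% ± 2.43 of the sum in ESC and 44.6% ± 1.40 in NrESC, while the share of Idi1 was 5.62% ± 0.787 for ESC, against 4.34% ± 0.702 for NrESC (SD over 8 passages).

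The passage profiles ran together in one arm more than in the other. Over the 8 ESC passage means of log2 CPM, Pearson's r between 2 enzymes ran from 0.664 to 0.988 over the 15 pairs, with a median of 0.936. Over the 8 NrESC means it ran from -0.950 to 0.922, with a median of 0.348. Idi1 was negatively correlated with each of the other 5 in NrESC, with r = -0.950 to Mvk, -0.833 to Mvd and -0.793 to Fdps. These are descriptions over 8 points that share an arm and a passage series.

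**Figure D3:**
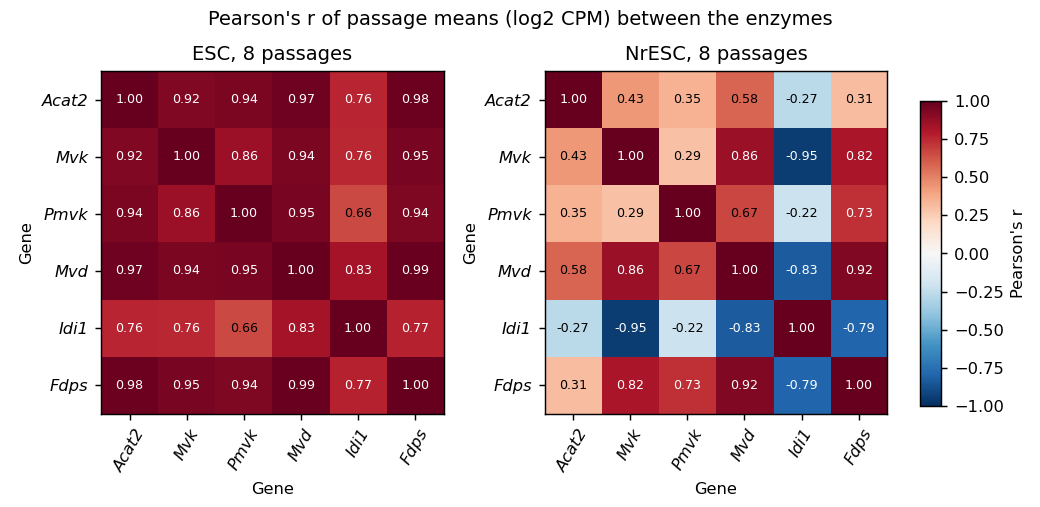
Pearson's r between the passage means (log2 CPM) of each pair of enzymes, over 8 passages in ESC (left) and NrESC (right), coloured from -1 (blue) to 1 (red) with r printed in each cell. All pairs are positive in ESC, and the row and column of Idi1 are negative in NrESC.

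The enzymes beside the 6 in the pathway were read from lists of names. Acat1, the mitochondrial thiolase, had a log2 fold change of 0.20. Idi2, a paralog of Idi1, was under the filter, at 0.00125 TPM on average. All 3 genes of acetyl-CoA supply were higher, as were 39.1% of all genes, Acss2 by 0.68, Slc25a1 by 0.35 and Acly by 0.28.

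Counts below farnesyl diphosphate are read against the 39.1% of all genes that were higher and the 39.8% that were lower. In the sterol branch 11 of 12 genes were higher in the mean of 8 passages and none lower, with a median of 0.474. Dhcr7, the 7-dehydrocholesterol reductase, was highest at 0.81, and Hsd17b7 at -0.06 was not called. In the prenyl branch 8 of 15 were higher and 6 lower, with a median of 0.036. Coq2, of ubiquinone synthesis, stood at 0.55, Rabggta, a subunit of Rab geranylgeranyl transferase, at 0.47, and Ggps1, which makes geranylgeranyl diphosphate, at 0.13. The farnesyl transferase subunits Fntb and Fnta stood at -0.48 and -0.25. The difference between the branches was not tested. Of 9 genes of SREBP control, 6 were higher and 2 lower, with a median of 0.465: Srebf1, a known LXR target, stood at 1.73, Insig1 at 0.58, Srebf2 at 0.47 and Scap at -0.17.

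**Figure D4:**
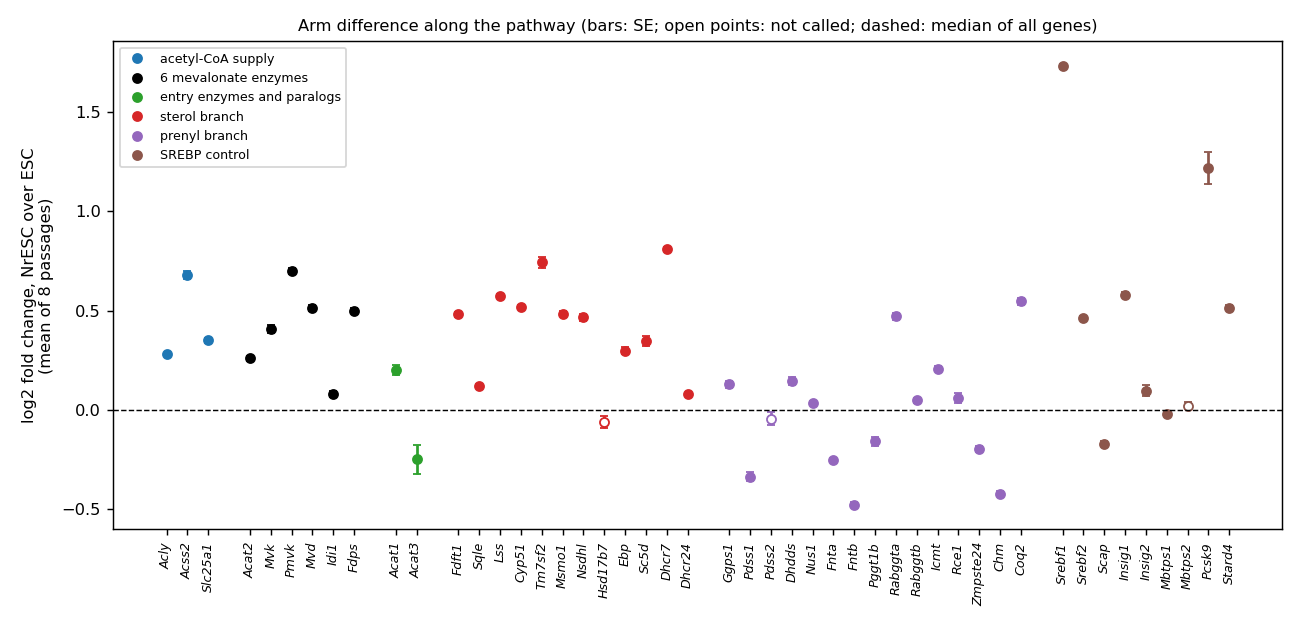
Log2 fold change of NrESC over ESC in the mean of 8 passages (vertical axis) for each tested gene of the pathway lists, coloured by list, with bars of 1 standard error, open points for genes not called and a dashed line at the median of all genes. The 6 mevalonate enzymes lie between 0.08 and 0.70, the sterol branch lies mostly above 0, and the prenyl branch lies on both sides.

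The genes whose profile over the 16 group means of log2 CPM was most like the average profile of the 6 were sought among 11169 genes. The 6 themselves and placeholder symbols, such as Gm and Rik names, were passed over. The most alike were Erg28 (r = 0.963), Lss (0.959), Nsdhl (0.958), Spice1 (0.957), Qdpr (0.949), Aacs (0.944), Sc5d (0.943) and Dguok (0.941). The most opposite were Itgav (-0.967), Zscan4f (-0.958), Zscan4a (-0.956) and Fam124a (-0.956). Likeness was weaker within NrESC. Over the 8 NrESC groups alone r ran from 0.337 (Dguok) to 0.826 (Qdpr) for the 8 most alike genes. Over the 8 ESC groups it ran from 0.919 (Qdpr) to 0.981 (Spice1). For the 4 most opposite, r over the NrESC groups ran from -0.683 (Zscan4f) to -0.508 (Itgav). Of the members, Idi1 had an r of 0.560 to this average, of which it is a part, and -0.423 over the 8 NrESC groups alone. Mmab, which shares its start region with Mvk on the opposite strand, had a log2 fold change of 0.63 (SE 0.027) in the mean, beside 0.41 for Mvk. Tcp1, whose transcripts share sequence words with Acat2, had one of -0.11. Of the other adjacent genes tested, Cyba stood at 0.71, 9330133O14Rik at 0.46, Pbxip1 at 0.12 and Rusc1 at -0.14.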

How the data were processed

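The deposited table of estimated counts per gene symbol held values that the authors had made with RSEM per the file headers, not normalized, with 0.837% of values fractional; they were rounded for the tests. A second deposited table held TPM, which the authors had corrected for length. The submitters' processing notes name STAR, Cufflinks 2.2.1, HTSeq 0.12.4, DESeq2, edgeR, RSEM and mm9; their roles, the annotation and the strand setting are not given in the sources used here. Sequences and shared 50-base words come from GRCm38, a later build, and no coordinates were converted.

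All 32 libraries were fitted with edgeR 4.0.16 in R 4.3.3 (filterByExpr, TMM scaling, quasi-likelihood test, 1 mean for each of 16 groups, 16 residual degrees of freedom, 2 libraries a group). The Benjamini-Hochberg adjustment ran over 15036 genes, and the threshold was 0.05. Standard errors come from this fit. Values for log2 CPM used a prior count of 2. Alternatives were DESeq2 1.42.0, limma 3.58.1 on log2 TPM, other scalings, no filter, a replicate block, passage as the unit, and leaving out single libraries or passages.

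The 6 enzymes, the lists and the tests were chosen with earlier results of these data known. Named genes were the 6 enzymes, the pathway lists, genes adjacent to the enzymes, fixed markers, and the 8 genes most like and 4 least like their average profile. Those 8 and 4 came from genes averaging 1 or more in log2 CPM, without the 6 enzymes and placeholder symbols (Gm, Rik, LOC, BC and AK names). The deposited tables hold all libraries, and no library was left out. Some genes of the pathway lists are not reported here.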

Additional observations from a re-analysis of the deposited data

Results flagged for a closer look

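The difference between NrESC and ESC was not the same at all passages for any of the 6 enzymes, by an F test of 7 contrasts in edgeR's quasi-likelihood model, in which 69.4% of all genes passed. The adjusted p was 1.5e-22 for Fdps, whose log2 difference went from -0.08 at passage 0 to 0.94 at passage 8. It was 9.19e-17 for Mvd (0.12 to 1.01 between the same passages) and 3.61e-12 for Idi1 (-0.27 at passage 2, 0.32 at passage 6). It was 4.02e-11 for Pmvk, 1.41e-10 for Acat2 and 8.65e-05 for Mvk, the enzyme whose difference moved least. The sign of the difference was the same at 8 of 8 passages for Mvk, Pmvk and Mvd.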

How the results depend on the processing

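All 6 enzymes stayed higher in the mean of 8 passages under other scalings, no filter, DESeq2, limma on TPM, each left-out library and without early passages or passage 8; only passage as the unit removed 1 of them, Idi1 (0.0783; adjusted p = 0.351). At passage 0 the number higher ran from 1 to 3 and the number lower from 1 to 2 over left-out libraries, and limma on TPM without a filter gave 1 lower. In those left-out fits Acat2 at passage 0 ran from -0.105 to 0.0162, Idi1 at passage 4 from -0.0649 to 0.0625, and the NrESC slope of Pmvk from -0.00110 to 0.00114; that slope was 0.000463 with median-of-ratios scaling and 0.00232 with library totals. With passage as the unit 0 slopes were called in ESC, in NrESC or in their difference. Without passage 0, 3 NrESC slopes were higher and 2 slope differences; the NrESC slopes of Acat2 and Pmvk, both called, were 0.00732 and 0.00922, the ESC slope of Pmvk, not called, 0.00720, and the slope differences of Mvk, Mvd and Fdps, none of them called, -0.00691, -0.00125 and -0.00223. Without passages 0 and 2, ESC slopes were higher for 4 and lower for 0 (Acat2 0.0178, Pmvk 0.0240, Mvd 0.0295, Fdps 0.0278; Idi1, not called, 0.00546). NrESC slopes were then higher for 2 (Idi1 and, at 0.0147, Acat2; Pmvk, not called, 0.00813), and slope differences higher for 0 and lower for 4 (Mvk -0.0211, Pmvk -0.0159, Mvd -0.0325, Fdps -0.0427; Acat2, not called, -0.00312). The share of all genes called was not counted for the fits without early passages, so these counts have no background beside them. The cause of these shifts was not tested. Of the results under alternatives, 2590 were rated the same, a rating that let counts shift within a limit. In addition, 31 changed sign, 30 lost their call, 2 gained one, and 16 counts or ranks moved. Ordered by CPM, Idi1 stood above Pmvk in ESC and above Mvk in NrESC.

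Libraries with the same replicate number in both arms did not deviate together (r of -0.019 to 0.062 over 8 passages), so the numbers were not taken as pairs. A fit with the replicate number as a block left all 6 enzymes higher in the mean and changed no call of an enzyme. Library totals of 24989651 counts or more put every enzyme far above the filter, and precision is limited by 2 libraries a group.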
